A study of Mus musculus with 43 samples.

Results

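Regulatory T cells were followed in mouse lung RNA through 8 genes that mark or equip them: Foxp3, Ikzf2, Il2ra, Il10, Tnfrsf18, Tnfrsf4, Icos and Tigit. The genes were picked by symbol from the 24475 gene IDs of the count table, and all 8 were found and passed the filter on low counts. The mice were exposed to house dust mite (HDM), an allergen that inflames the airways, or to saline. There were 43 lung libraries. With 15 weeks of HDM, 15 came from mice given anti-IL-33, 4 from mice given isotype control and 7 from mice with no antibody. A further 10 had 4 weeks of HDM and no antibody, and 7 had saline. The sample titles do not say when, or for how long, the antibodies were given. All animals, controls included, were Il33hu/hu, a humanised genotype of the alarmin cytokine gene Il33, on a background labelled C57BL/6NTac (75%) / 129S6SvEvTac (25%). The labels used here do not state age, sex, route or antibody dose. For saline no number of weeks is stated, so time or age and HDM cannot be told apart wherever saline is the control.

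Regulatory T cells are CD4+ T cells that restrain immune responses. FOXP3 is the transcription factor that sets their programme, and the high-affinity interleukin-2 receptor chain encoded by Il2ra keeps them alive by capturing interleukin-2. In allergic airway disease they are known to limit type 2 inflammation, and in tissues they carry costimulatory receptors of the TNF receptor and CD28 families at high levels. None of the 8 genes except Foxp3 is restricted to these cells: activated effector T cells carry Il2ra, Icos, Tnfrsf4, Tnfrsf18 and Tigit, group 2 innate lymphoid cells (ILC2) carry Il2ra and Icos, and macrophages and B cells make Il10.

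Several of these genes changed together, so the DNA just before their starts is shown for members of different kinds: the lineage factor, a costimulatory receptor and the interleukin-2 receptor chain. RefSeq promoters (build GRCm38.p6) matched 5 of the 8 members. The windows shown are the 250 bases before the start, on the plus strand, at chrX:7579426-7579675 for Foxp3, chr4:156026072-156026321 for Tnfrsf18 and chr2:11642542-11642791 for Il2ra.
Foxp3: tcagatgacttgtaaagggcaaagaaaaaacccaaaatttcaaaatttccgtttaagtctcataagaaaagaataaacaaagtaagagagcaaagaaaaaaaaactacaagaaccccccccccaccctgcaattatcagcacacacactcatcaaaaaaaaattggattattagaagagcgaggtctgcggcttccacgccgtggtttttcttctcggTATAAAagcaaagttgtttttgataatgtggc
Tnfrsf18: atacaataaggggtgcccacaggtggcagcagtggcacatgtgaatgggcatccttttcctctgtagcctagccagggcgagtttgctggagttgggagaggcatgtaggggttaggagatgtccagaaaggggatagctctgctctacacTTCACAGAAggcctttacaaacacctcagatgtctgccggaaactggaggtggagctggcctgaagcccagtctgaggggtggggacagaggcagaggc
Il2ra: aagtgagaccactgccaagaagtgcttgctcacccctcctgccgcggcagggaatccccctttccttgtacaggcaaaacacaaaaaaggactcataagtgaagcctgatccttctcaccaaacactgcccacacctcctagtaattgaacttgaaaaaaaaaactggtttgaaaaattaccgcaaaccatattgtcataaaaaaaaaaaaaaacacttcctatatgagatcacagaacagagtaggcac
Capitals mark the matches to the 5 short motifs searched on both strands, which do not share letters in these windows. The TATA box was searched as TATAAA. The STAT motif was searched as TTCNNNGAA, and the AP-1 motif as TGANTCA. The RUNX motif was searched as TGTGGT, and the forkhead motif as TGTTTAC. Foxp3 held TATAAA 32 to 27 bases before the start used here, and 12.4% of 32851 promoters of the same length held that motif. The promoter set lists 2 starts for Foxp3, and only the first was searched. Tnfrsf18 held a STAT match, TTCACAGAA, 99 to 91 bases before its start, against 7.02% of promoters with one. The Il2ra window held no match, and the shares for AP-1, RUNX and forkhead over all promoters were 6.75%, 14.05% and 3.17%. A match describes letters and is not a measured binding site.

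Total counts per library ranged from 4795214 to 12599467, and levels are given as CPM, counts scaled to a common library total with TMM factors. Differences come from edgeR's quasi-likelihood test over 15598 genes, and a gene is said to rise or fall where its Benjamini-Hochberg adjusted p is under 0.05. Nothing in the labels says whether libraries of a group came from separate mice, so p-values reflect sample-to-sample spread, which may be technical. Sample numbers in the labels fall in 2 ranges whose meaning is not given, of 22 libraries (range 1) and 21 (range 2), and no group lies wholly within one. Libraries that stand apart are 15-week HDM library 1, with a TMM factor of 0.694 where all others lie between 0.878 and 1.09, and 4-week HDM library 3, at 82.7 on the second principal component where the next library is at 28.6. The first of these had the lowest value of its group for 4 of the 8 genes and the highest for 2 (Foxp3 and Tnfrsf18), and the other had the highest of its group for 4.

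Relative to saline, 7 of the 8 genes rose at 15 weeks of HDM and at 4 weeks, and Ikzf2 did not pass the test at either time. The background was high: 59.2% of all tested genes changed at 15 weeks (31.2% rose and 28.1% fell), and 56.8% at 4 weeks (29.3% rose and 27.5% fell). The median log2 fold change of the 8 genes was 1.31 at 15 weeks and 1.43 at 4 weeks, against 0.01 over all genes at each time. In whole lung, more regulatory T cells and more RNA per cell cannot be told apart.

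**Figure D1:**
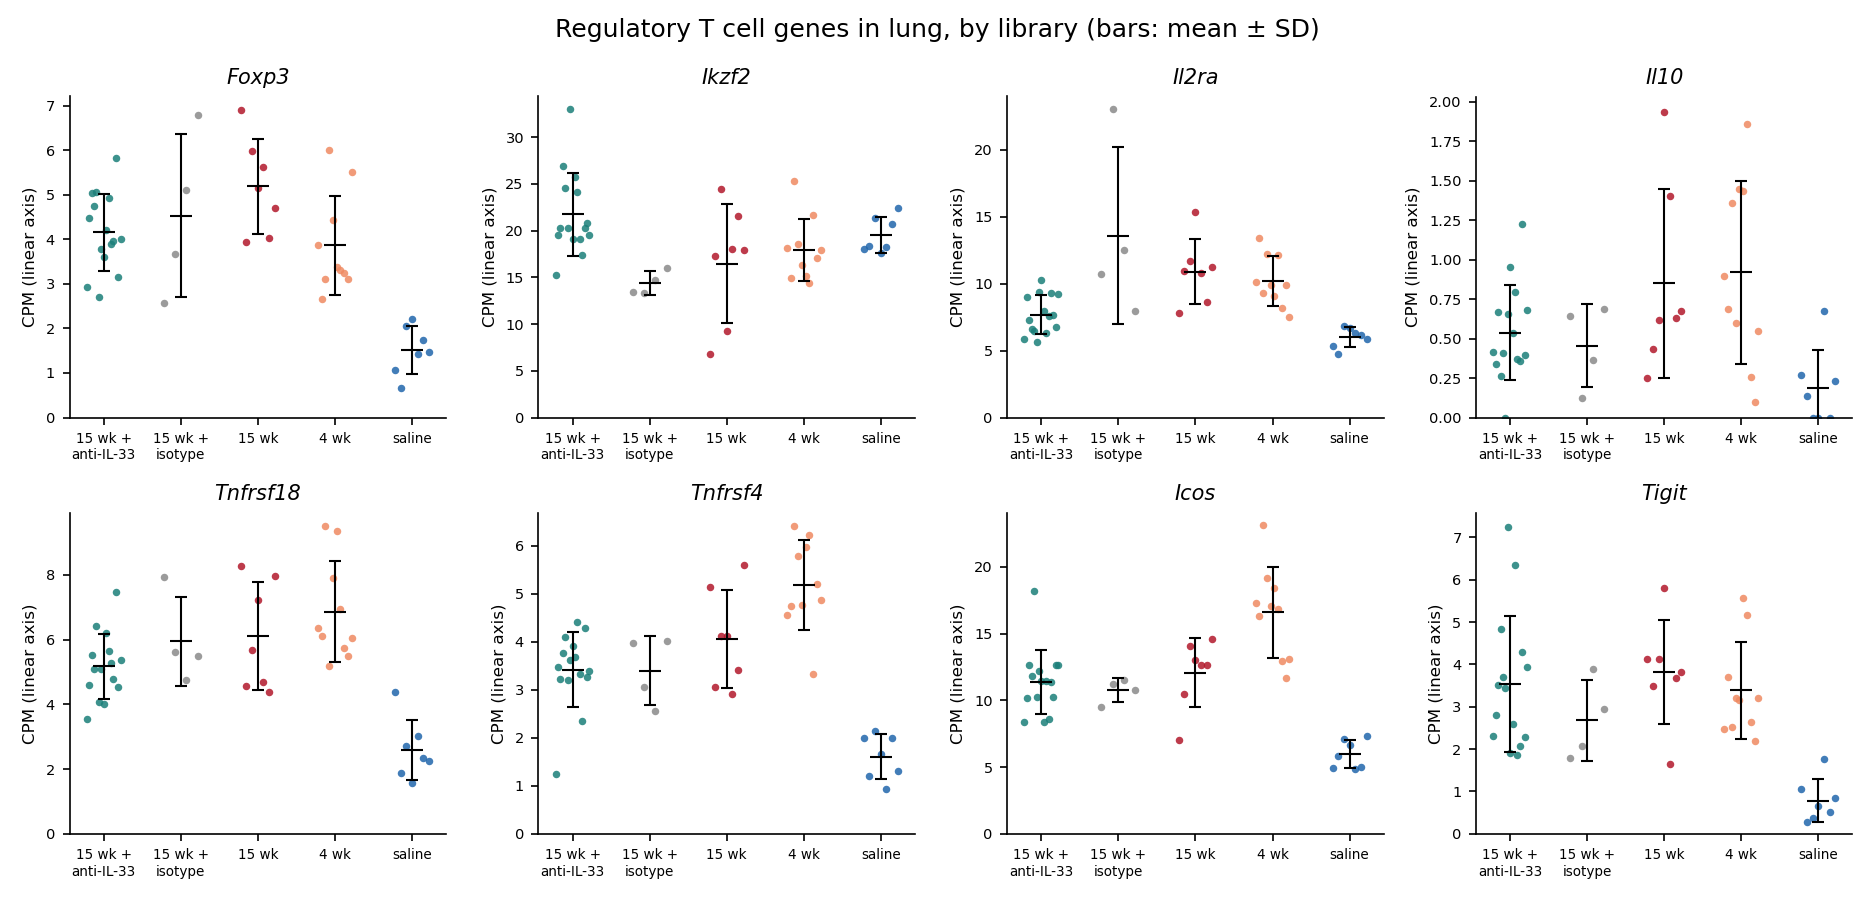
Level of each gene in CPM (linear axis) in every library, by group, with bars for the mean and SD. The 7 saline libraries (up to 2.22 CPM) lie below all others for Foxp3, while Ikzf2 in saline (mean 19.5 CPM) lies within the range of the HDM groups.

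Foxp3 had 3.93, 5.15 and 6.89 CPM as lowest, median and highest of the 7 libraries at 15 weeks, 2.67, 3.34 and 5.99 CPM over the 10 at 4 weeks, and 0.673, 1.46 and 2.22 CPM over the 7 saline libraries. Every HDM library at both times lay above every saline library. The log2 fold change was 1.82 ± 0.22 (SE; edgeR adjusted p = 1.35e-08) at 15 weeks and 1.33 ± 0.20 (edgeR adjusted p = 1.18e-06) at 4 weeks. Within the number ranges it was 2.66 and 1.31 at 15 weeks, and 2.14 and 1.12 at 4 weeks, a rise in each. Whether the size of the rise differs between ranges was not tested. Range 1 has 2 saline libraries, with 8 and 5 Foxp3 counts, and range 2 has 2 libraries at 15 weeks. Counts behind these values were small, 18 to 58 per library at 15 weeks, 16 to 60 at 4 weeks and 5 to 24 in saline. Foxp3 lies on chromosome X at 7579676 to 7595243 (GRCm38.p6, plus strand), where other annotated genes, Ppp1r3f, Ccdc22 and the antisense-annotated Flicr among them, overlap it.

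Over the 5 groups, mean Foxp3 was 5.19 ± 1.07 CPM (SD, n = 7) after 15 weeks of HDM, 4.53 ± 1.83 (n = 4) with isotype, 4.16 ± 0.871 (n = 15) with anti-IL-33, 3.86 ± 1.11 (n = 10) at 4 weeks and 1.52 ± 0.541 (n = 7) in saline. Among neighbours in that order, the step between 4 weeks and saline passed the test. The isotype group did not differ past the threshold from 15 weeks without antibody (edgeR adjusted p = 0.902), nor did anti-IL-33 from isotype (edgeR adjusted p = 0.674), and anti-IL-33 and 4 weeks were not compared.

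Ikzf2 encodes Helios, a zinc finger factor used as a marker of thymus-derived regulatory T cells and present in other lung cells as well. It had 6.77, 17.9 and 24.5 CPM as lowest, median and highest at 15 weeks, 14.4, 17.5 and 25.3 CPM at 4 weeks, and 17.6, 18.3 and 22.4 CPM in saline. The groups overlapped, and the log2 fold change was -0.23 (95% interval -0.58 to 0.12) at 15 weeks and -0.13 (-0.44 to 0.19) at 4 weeks, so a rise of the size seen for Foxp3 lies outside both intervals.

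Il2ra, the CD25 chain, had 7.77, 10.9 and 15.3 CPM as lowest, median and highest at 15 weeks, 7.52, 9.88 and 13.4 CPM at 4 weeks, and 4.71, 6.17 and 6.82 CPM in saline. All 7 libraries at 15 weeks and all 10 at 4 weeks were above every saline library. The rise was 0.81 ± 0.18 on the log2 scale at 15 weeks (edgeR adjusted p = 0.000179) and 0.74 ± 0.16 at 4 weeks (edgeR adjusted p = 0.000155), the smallest among the 7 genes that rose.

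Il10, the anti-inflammatory cytokine, was the least abundant member. It had 0.251, 0.628 and 1.93 CPM as lowest, median and highest at 15 weeks, 0.100, 0.791 and 1.86 CPM at 4 weeks, and 0, 0.135 and 0.673 CPM in saline. The groups overlapped, and 3 of the 7 saline libraries had no Il10 count. Summed over libraries there were 50 counts at 15 weeks, 94 at 4 weeks and 14 in saline, so many single values lie near what 3 counts are worth (0.227 to 0.655 CPM by library). Il10 rose by 2.18 ± 0.63 at 15 weeks (edgeR adjusted p = 0.00329) and 2.22 ± 0.57 at 4 weeks (edgeR adjusted p = 0.00105), but neither number range alone passed at 15 weeks, with 2.16 and 1.75.

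Tnfrsf18, which encodes the costimulatory receptor GITR, had 4.40, 5.68 and 8.27 CPM as lowest, median and highest at 15 weeks, 5.19, 6.24 and 9.52 CPM at 4 weeks, and 1.57, 2.35 and 4.40 CPM in saline. All 10 libraries at 4 weeks and 6 of 7 at 15 weeks were above every saline library, the remaining one falling at the highest saline value. The log2 fold change was 1.26 ± 0.20 at 15 weeks and 1.41 ± 0.18 at 4 weeks (edgeR adjusted p = 1.09e-06 and 3.93e-08). Tnfrsf4, encoding OX40, had 2.92, 4.12 and 5.60 CPM at 15 weeks, 3.33, 5.03 and 6.41 CPM at 4 weeks, and 0.926, 1.66 and 2.15 CPM in saline, with no overlap. It rose by 1.37 ± 0.20 and 1.69 ± 0.19 (edgeR adjusted p = 4.91e-07 and 2.17e-09). These receptor genes are neighbours on chromosome 4, with 9708 bases between the end of Tnfrsf4 (156013595 to 156016613) and the start of Tnfrsf18 (156026322 to 156028894), both on the plus strand.

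Icos, the CD28-family receptor that sustains effector and regulatory T cells, had 7.02, 12.7 and 14.6 CPM as lowest, median and highest at 15 weeks, 11.7, 16.9 and 23.1 CPM at 4 weeks, and 4.88, 5.79 and 7.32 CPM in saline. Only the lowest 15-week library, library 1, fell among the saline values. The log2 fold change was 0.98 ± 0.16 at 15 weeks and 1.45 ± 0.15 at 4 weeks (edgeR adjusted p = 2.31e-06 and 3.70e-10). Tigit, an inhibitory receptor for nectin-family ligands, had 1.64, 3.81 and 5.80 CPM at 15 weeks, 2.20, 3.17 and 5.56 CPM at 4 weeks, and 0.269, 0.647 and 1.77 CPM in saline. A single 15-week library lay among the saline values, and the rises were 2.26 ± 0.35 and 2.08 ± 0.32 (edgeR adjusted p = 9.23e-07 and 1.25e-06).

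HDM and saline libraries did not overlap for 3 of the 8 genes at 15 weeks (Foxp3, Il2ra and Tnfrsf4) and for 6 at 4 weeks (these and Tnfrsf18, Icos and Tigit), with HDM higher in each. Over all tested genes, 14.7% lay wholly above saline at 15 weeks and 9.99% at 4 weeks. Per kilobase of exon, the members' order in 15-week lungs was Tigit (4.15 CPM per kb), Tnfrsf18 (4.01), Icos (3.52), Tnfrsf4 (2.97), Il2ra (1.91), Ikzf2 (1.42), Foxp3 (1.13) and Il10 (0.648). In saline lungs it was Icos (1.74), Tnfrsf18 (1.70), Ikzf2 (1.68), Tnfrsf4 (1.18), Il2ra (1.05), Tigit (0.854), Foxp3 (0.332) and Il10 (0.142). By these means Tigit stood first at 15 weeks and the sixth in saline, while Ikzf2 stood the sixth and the third. The order rests on GENCODE M21 exon lengths, 919 bases for Tigit and 11613 for Ikzf2, and the annotation used for counting is not given. The order of close means is not settled. At 15 weeks the SD was 1.33 for Tigit and 1.10 for Tnfrsf18. In saline it was 0.309 for Icos, 0.611 for Tnfrsf18 and 0.165 for Ikzf2.

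**Figure D2:**
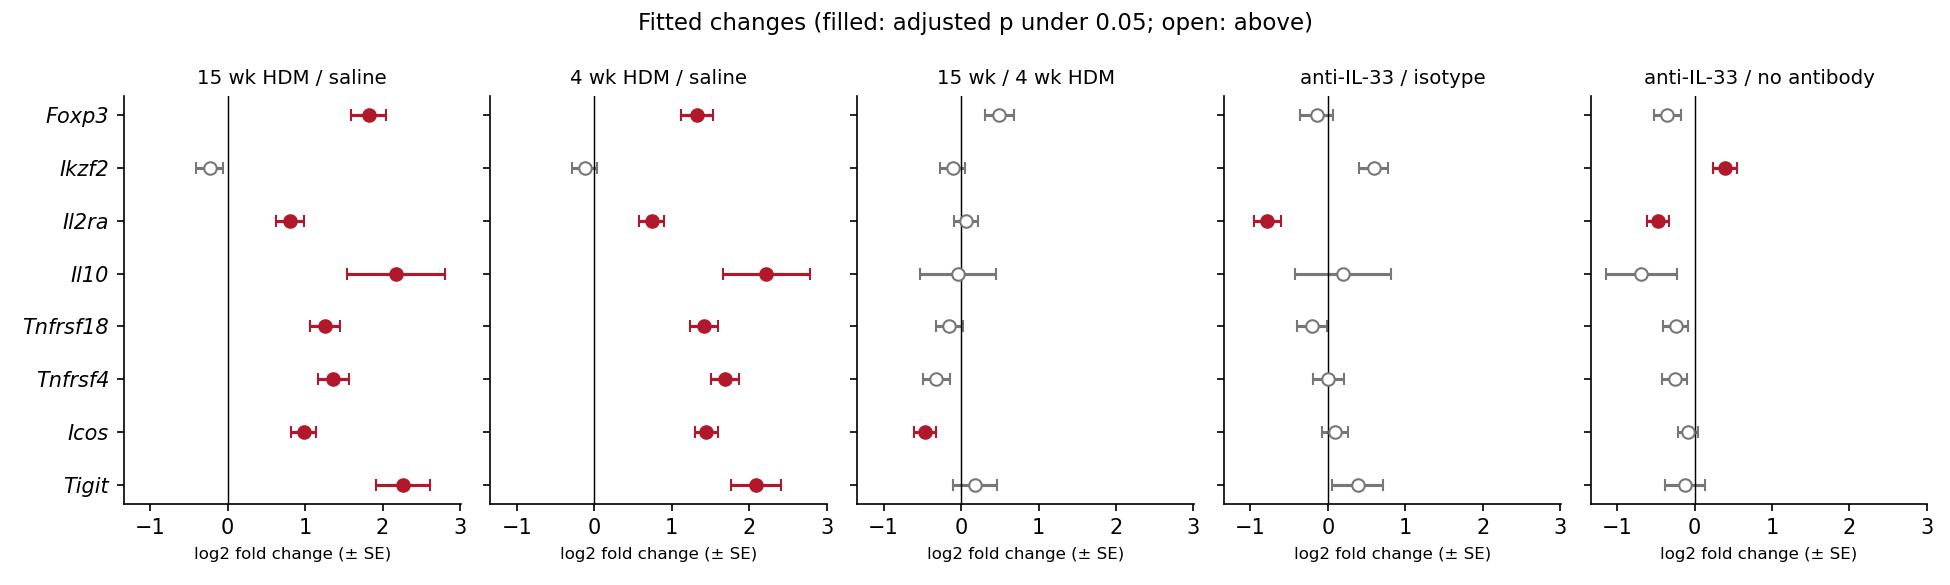
Log2 fold change with SE for each gene in 5 comparisons, filled where the edgeR adjusted p is under 0.05. The contrasts with saline show 7 filled points each, 15 against 4 weeks only Icos (-0.47), anti-IL-33 against isotype only Il2ra (-0.78), and anti-IL-33 against no antibody Ikzf2 (0.39) and Il2ra (-0.48).

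Between 15 and 4 weeks of HDM, 1 of the 8 genes changed, against 21.4% of all tested genes (12.3% higher and 9.08% lower). Icos was lower at 15 weeks, with a log2 fold change of -0.47 ± 0.14 (edgeR adjusted p = 0.0160) and 12.1 ± 2.57 CPM at 15 weeks (SD, n = 7) against 16.6 ± 3.38 CPM at 4 weeks (n = 10), and the groups overlapped. This call rested on few libraries: without the libraries that stand apart the change was -0.31 (edgeR adjusted p = 0.0929), and in the number ranges alone it was -0.73 (edgeR adjusted p = 0.0290) and -0.14 (edgeR adjusted p = 0.819). Foxp3 was 0.50 ± 0.19 higher at 15 weeks on the log2 scale, with all 7 libraries above the 4-week median, but missed the threshold in edgeR (adjusted p = 0.0557) and passed it in DESeq2 (adjusted p = 0.0376). The other 6 genes had log2 fold changes between -0.32 (Tnfrsf4) and 0.18 (Tigit).

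The comparison of anti-IL-33 with isotype asks what blocking IL-33 does to HDM-exposed lungs over an antibody that does not bind it. It called 1 of the 8 genes, Il2ra, where 6.71% of all genes changed (3.58% rose and 3.14% fell). Il2ra had 5.67, 7.59 and 10.3 CPM as lowest, median and highest of the 15 anti-IL-33 libraries, and 10.8, 23.05, 12.52 and 7.96 CPM in isotype libraries 1 to 4. The groups overlapped, and 9 of the 15 anti-IL-33 libraries were below every isotype library. The log2 fold change was -0.78 ± 0.17 (edgeR adjusted p = 0.00727). Isotype library 2 decided the call, since without it the change was -0.42 (edgeR adjusted p = 0.107), and it was -1.03 in number range 1 and -0.03 in number range 2, where the isotype group has 1 library. Against the 7 libraries at 15 weeks without antibody, Il2ra was also lower with anti-IL-33 (-0.48 ± 0.14, edgeR adjusted p = 0.0105), and both contrasts use the same anti-IL-33 libraries.

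Part of a list of ILC2 and type 2 lymphocyte genes was also lower with anti-IL-33. Against isotype, where 3.14% of all genes fell and 3.58% rose, 4 of 8 fell with anti-IL-33 and none rose. They were Il5 (-2.68 ± 0.57), Il13 (-2.56 ± 0.55), Klrg1 (-1.33 ± 0.28) and Il1rl1, the IL-33 receptor (-1.25 ± 0.26). Il5 and Il13 had means of 0.139 and 0.324 CPM with anti-IL-33, against 1.02 and 2.07 CPM with isotype. The anti-IL-33 means lie within or below what 3 counts are worth (0.227 to 0.655 CPM by library). The list's summed level ran from 94.997 to 119.6 CPM with anti-IL-33 and from 110.4 to 149.5 CPM with isotype. Its most abundant gene, Rora, had means of 77.4 and 64.8 CPM in these groups and was not called (edgeR adjusted p = 0.159). None of the list's genes was at 0 in every library, and the list's part in the Il2ra result was not tested.

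Ikzf2 was higher with anti-IL-33 than with isotype by 0.59 ± 0.19 on the log2 scale but just missed the threshold (edgeR adjusted p = 0.0512). Its levels were 15.2, 20.2 and 33.04 CPM as lowest, median and highest with anti-IL-33, and 13.4, 13.3, 14.7 and 16.01 CPM in isotype libraries 1 to 4. In 14 of the 15 anti-IL-33 libraries Ikzf2 was above every isotype library. DESeq2 called it (adjusted p = 0.0261), and over all alternatives the adjusted p ran between 0.00708 and 0.786. Against 15 weeks without antibody, where 35.8% of genes changed (15.9% higher and 19.9% lower), Ikzf2 passed (0.39 ± 0.15, edgeR adjusted p = 0.0405), but not without the libraries that stand apart (0.26). Levels with anti-IL-33 (21.7 ± 4.45 CPM, n = 15) did not differ past the threshold from saline (19.5 ± 1.91 CPM, n = 7; edgeR adjusted p = 0.427).

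Foxp3 had 2.71, 4.00 and 5.83 CPM as lowest, median and highest with anti-IL-33, and 2.56, 3.66, 5.11 and 6.78 CPM in isotype libraries 1 to 4. The anti-IL-33 values all lay inside the isotype range. The log2 fold change was -0.14 (95% interval -0.56 to 0.27). The other members did not pass the test either, with log2 fold changes and SE of Tigit 0.39 ± 0.33, Il10 0.20 ± 0.62, Icos 0.09 ± 0.16, Tnfrsf4 0.00 ± 0.20 and Tnfrsf18 -0.20 ± 0.19. Tnfrsf18 ran from 3.55 to 7.46 CPM with anti-IL-33 (median 5.09), against 7.94, 5.61, 4.74 and 5.50 CPM in the isotype libraries. Tnfrsf4 ran from 1.25 to 4.41 CPM (median 3.48), against 3.97, 3.05, 2.55 and 4.03 CPM with isotype. In both genes the groups overlapped. Il10 ran from 0 to 1.23 CPM (median 0.418), against 0.64, 0.12, 0.36 and 0.69 CPM with isotype, on 79 and 16 counts in all. Isotype libraries 1 to 4 had 9.47, 11.2, 11.5 and 10.8 CPM of Icos and 1.79, 2.07, 3.89 and 2.95 CPM of Tigit, and the anti-IL-33 medians were 11.4 and 3.45 CPM.

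Lungs with anti-IL-33 still differed from saline lungs in 6 of the 8 genes, all higher, where 38.6% of genes changed (20% rose and 18.5% fell). The rises were 2.14 ± 0.31 for Tigit, 1.49 ± 0.57 for Il10, 1.47 ± 0.20 for Foxp3, 1.11 ± 0.18 for Tnfrsf4, 1.01 ± 0.17 for Tnfrsf18 and 0.90 ± 0.14 for Icos. For Foxp3, Icos and Tigit all 15 anti-IL-33 libraries were above every saline library, as for 5.08% of all tested genes. For Tnfrsf4 it was 14 of 15, for Tnfrsf18 12, and for Il10 only 4 (edgeR adjusted p = 0.0338). Il2ra was at 0.33 ± 0.15 and missed the threshold (edgeR adjusted p = 0.0779), with 9 of 15 anti-IL-33 libraries above every saline library. Isotype and no antibody at 15 weeks gave no call for any of the 8 genes with edgeR, DESeq2 or at an unadjusted p under 0.05. Over all genes the same contrast gave 0 edgeR calls (0%), 8 DESeq2 calls and 933 genes at an unadjusted p under 0.05.

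**Figure D3:**
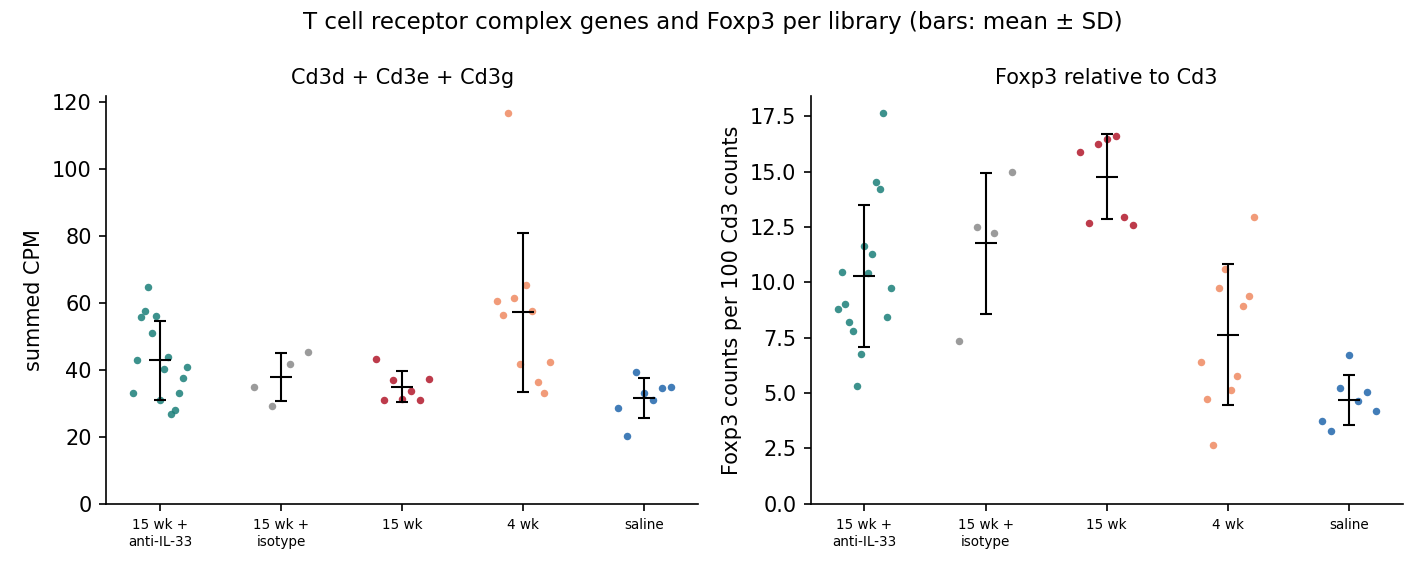
Summed CPM of Cd3d, Cd3e and Cd3g (left) and Foxp3 counts per 100 counts of these genes (right) in every library, with the mean and SD. Cd3 at 15 weeks (mean 34.97 CPM) is close to saline (31.6 CPM), while the ratio is 14.8 at 15 weeks and 4.69 in saline. At 4 weeks the Cd3 mean is 57.1 CPM and the ratio is 7.64.

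Foxp3 was also set against the T cell receptor genes Cd3d, Cd3e and Cd3g, carried by all T cells, so that library scaling drops out. Per 100 Cd3 counts there were 14.8 ± 1.91 Foxp3 counts (SD, n = 7) at 15 weeks, 7.64 ± 3.17 (n = 10) at 4 weeks and 4.69 ± 1.12 (n = 7) in saline. At 15 weeks the lowest, median and highest were 12.61, 15.9 and 16.6, at 4 weeks 2.66, 7.67 and 12.96, and in saline 3.31, 4.63 and 6.70. All 7 libraries at 15 weeks were above every saline library, and 5 of them above every 4-week library.

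The ratio was 1.64 higher on the log2 scale at 15 weeks than in saline (exact two-sided permutation p = 0.000583, the smallest the design can give; adjusted p = 0.00146 over 5 comparisons) and 1.07 higher than at 4 weeks (exact permutation p = 0.00113, adjusted p = 0.00189). At 4 weeks it was 0.57 higher than in saline and missed the threshold (exact permutation p = 0.0577, adjusted p = 0.0721), but passed without the libraries that stand apart (0.72, exact permutation adjusted p = 0.00863). Library 3 at 4 weeks had the highest Cd3 sum of its group, 116.8 CPM, and the lowest ratio, 2.66. The mean Cd3 sum was 57.1 ± 23.9 CPM (SD, n = 10) at 4 weeks and 34.97 ± 4.56 CPM (n = 7) at 15 weeks. Foxp3 alone was 0.50 ± 0.19 higher on the log2 scale at 15 than at 4 weeks and not called by edgeR. The difference in ratio between the times thus also holds a lower Cd3 level at 15 weeks. Within the number ranges the difference between 15 weeks and saline was 2.05 and 1.31, and that between 15 and 4 weeks 1.54 and 0.61.

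With anti-IL-33 the ratio was 10.3 ± 3.23 (n = 15), against 11.8 ± 3.19 (n = 4) with isotype, a log2 difference of -0.21 (exact permutation p = 0.405, adjusted p = 0.405). It remained 1.07 above saline (exact permutation p = 1.17e-05, adjusted p = 5.86e-05). That result depends on the denominator: per Cd4 count the difference between anti-IL-33 and saline was 0.20 (exact permutation adjusted p = 0.336), and between 15 weeks and saline it was 0.79 (exact permutation adjusted p = 0.00913).

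The T cell genes themselves moved unevenly. Of 14 T cell markers, 3 rose and 3 fell at 15 weeks against saline, and 10 rose and 3 fell at 4 weeks. The shares of all tested genes that rose and fell were 31.2% and 28.1% at 15 weeks, and 29.3% and 27.5% at 4 weeks. Between 15 and 4 weeks none of the 14 markers was higher at 15 weeks and 7 were lower, where 12.3% of all genes were higher and 9.08% lower. Cd4, the helper coreceptor, rose by 0.95 ± 0.19 at 15 weeks and 1.19 ± 0.17 at 4 weeks, and Cd8a, the cytotoxic T cell coreceptor, fell by 1.54 ± 0.32 and 0.67 ± 0.27. Cd3e was at 0.23 ± 0.23 (edgeR adjusted p = 0.411) at 15 weeks and rose by 0.61 ± 0.21 at 4 weeks. Against isotype none of the 14 changed with anti-IL-33, where 6.71% of all genes changed. Per 100 Cd3 counts, Ikzf2 gave 48.3 ± 19.4 at 15 weeks, 34.9 ± 12.9 at 4 weeks and 63.4 ± 12.46 in saline, and Tigit 11.1 ± 4.04, 6.46 ± 2.09 and 2.52 ± 1.68.

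**Figure D4:**
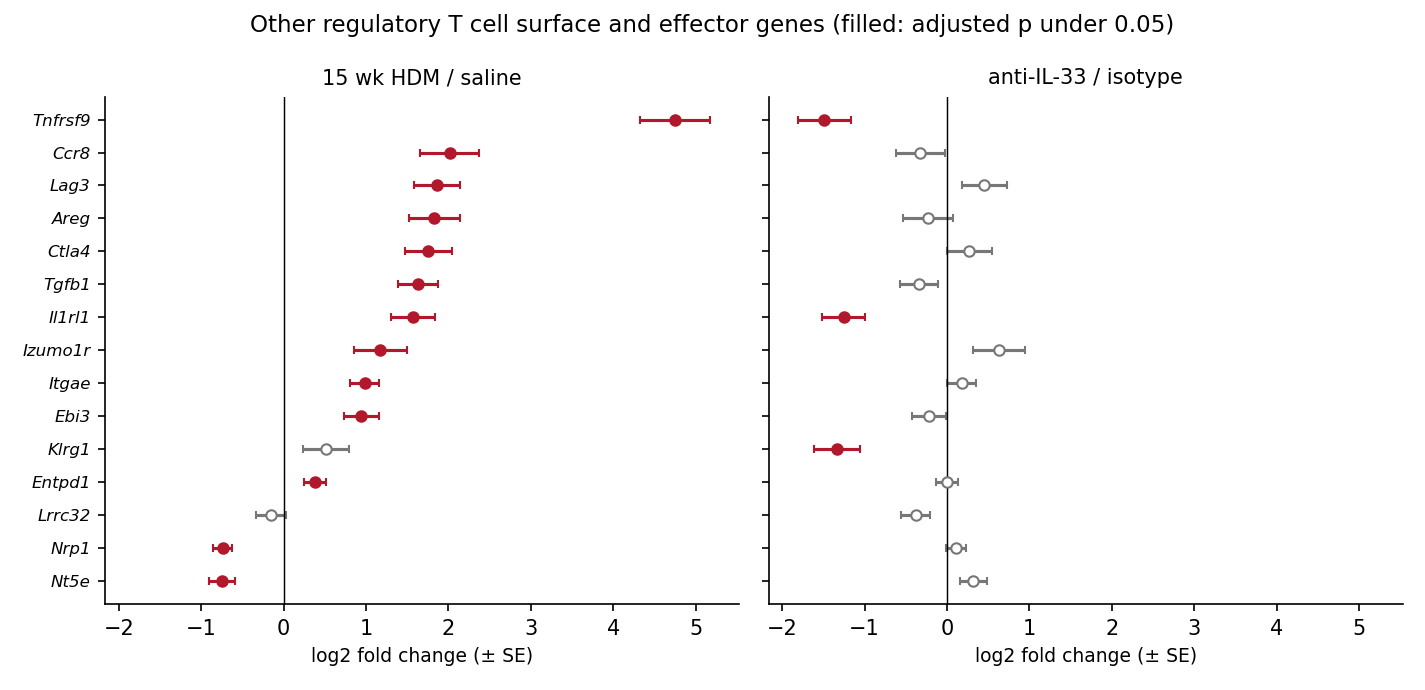
Log2 fold change with SE of 15 further genes of regulatory T cell surface and function, at 15 weeks of HDM against saline (left) and for anti-IL-33 against isotype (right), filled where the edgeR adjusted p is under 0.05. Tnfrsf9 is at 4.75 on the left and -1.49 on the right, and Ctla4 at 1.75 and 0.27.

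Of 16 further genes of regulatory T cell surface and function, 15 passed the filter, and Gpr83 did not. At 15 weeks 11 rose and 2 fell against saline, with a median of 1.17, and at 4 weeks 11 rose and 3 fell, with a median of 1.04. Over all tested genes, 31.2% rose and 28.1% fell at 15 weeks, and 29.3% rose and 27.5% fell at 4 weeks. Ctla4, the inhibitory receptor that lies between Cd28 and Icos on chromosome 1, 44940 bases before Icos, rose by 1.75 ± 0.29 at 15 weeks and 1.81 ± 0.26 at 4 weeks. Its levels were 1.38, 5.38 and 10.3 CPM as lowest, median and highest at 15 weeks, 3.798, 5.34 and 9.83 CPM at 4 weeks, and 1.07, 1.75 and 2.15 CPM in saline. Ccr8, a chemokine receptor of tissue regulatory and T helper 2 cells, rose by 2.01 ± 0.36 at 15 weeks and 2.98 ± 0.31 at 4 weeks, and fell by 0.97 between the times (edgeR adjusted p = 0.00911). The largest rise on the list was that of Tnfrsf9, the 4-1BB receptor, by 4.75 ± 0.43 at 15 weeks and 4.37 ± 0.40 at 4 weeks. Nrp1 and Nt5e, which lung vessel and stromal cells also carry, fell by 0.74 ± 0.12 and 0.74 ± 0.16 at 15 weeks. Which cells carried the genes that rose was not tested either. At 15 weeks Tnfrsf9 had a mean of 49.4 CPM, against 5.19 CPM for Foxp3. Areg and Il1rl1, which also rose at 15 weeks, are on the ILC2 list too.

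With anti-IL-33 against isotype, where 3.14% of all genes fell and 3.58% rose, 3 of the 15 tested genes on that list fell and none rose. They were Tnfrsf9 (17.8 ± 10.7 CPM against 49.96 ± 9.88 CPM; -1.49 ± 0.32), Klrg1 and Il1rl1, of which Klrg1 and Il1rl1 are on the ILC2 list too. Ctla4 was at 0.27 ± 0.28 (edgeR adjusted p = 0.527), and Tgfb1, a cytokine that induces Foxp3, at -0.34 ± 0.23 (edgeR adjusted p = 0.324). Against saline Tgfb1 rose by 1.63 ± 0.24 at 15 weeks and 0.87 ± 0.21 at 4 weeks. It was 0.76 ± 0.21 higher at 15 than at 4 weeks (edgeR adjusted p = 0.00870). With anti-IL-33 it was lower than without antibody at 15 weeks (-0.87 ± 0.19, edgeR adjusted p = 0.000924) and above saline (0.76 ± 0.20). The 15-week libraries without antibody were unevenly spread for Tgfb1, with a mean of 197.9 CPM and a median of 132.5 CPM.

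Among 13 transcription factors that act in regulatory T cells, 4 rose and 4 fell at 15 weeks against saline, and 5 rose and 4 fell at 4 weeks, where 59.2% and 56.8% of all genes changed. The share of this list that changed is near that background. Irf4 and its partner Batf, which drive the effector form of these cells and other activated lymphocytes, rose by 2.23 ± 0.25 and 1.44 ± 0.19 at 15 weeks. Irf4 had a mean of 85.2 CPM at 15 weeks, against 5.19 CPM for Foxp3, and which cells carried it was not tested. Stat5a, which relays interleukin-2 signals, rose by 0.66 ± 0.11, and its relative Stat5b fell by 0.24 ± 0.09. None of the 13 changed with anti-IL-33 against isotype, where 6.71% of all genes changed.

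Of 12 ligands, partner chains and receptors in the members' pathways, 9 could be tested. Of these, 4 rose and 3 fell at 15 weeks against saline, and 4 rose and 1 fell at 4 weeks. Among all tested genes, 31.2% rose and 28.1% fell at 15 weeks, and 29.3% rose and 27.5% fell at 4 weeks. Il2, Tnfsf4 (the OX40 ligand) and Tnfsf18 (the GITR ligand) had too few counts, with 2, 24 and 14 counts summed over the 7 libraries at 15 weeks, 13, 20 and 16 over the 10 at 4 weeks, and 3, 8 and 17 over the 7 in saline. Il10rb, a chain of the IL-10 receptor, rose by 0.67 ± 0.10 at 15 weeks, and Il2rg, the shared chain of the IL-2 receptor, by 0.33 ± 0.11. Il2rb, the other signalling chain of the IL-2 receptor, fell by 0.56 ± 0.21 at 15 weeks, as did Cd96, which binds a ligand of Tigit, by 0.68 ± 0.25. All 6 natural killer markers and Cd8a fell in the same contrast, and which cells carried Il2rb and Cd96 was not tested. Icosl, the ICOS ligand, had 28.5 ± 4.23 CPM at 15 weeks, 42.2 ± 9.37 CPM at 4 weeks and 34.1 ± 5.38 CPM in saline, higher than saline at 4 weeks (0.32 ± 0.12) and lower at 15 than at 4 weeks (-0.53 ± 0.12). Cd226, which competes with Tigit for ligands and is also carried by natural killer and CD8+ T cells, fell by 2.26 ± 0.34 at 15 weeks and was higher with anti-IL-33 than with isotype (1.21 ± 0.38, edgeR adjusted p = 0.0454), while Tigit rose in the first contrast and was not called in the second.

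Other immune cells moved beside the 8 genes under HDM, and their part in the members' changes was not tested. The counts below stand against 31.2% of all tested genes that rose and 28.1% that fell at 15 weeks against saline. At 15 weeks against saline all 4 plasma cell markers rose, with summed levels of 2620 to 7363 CPM against 30.5 to 586 CPM, and all 6 interstitial macrophage markers rose (1397 to 2731 CPM against 399 to 628 CPM). All 6 natural killer markers fell (9.60 to 18.3 CPM against 55.5 to 87.8 CPM). B cell markers rose for 3 of 6 (276 to 477 CPM against 181 to 302 CPM), migratory dendritic cell markers for 4 of 5 (128 to 314 CPM against 62.6 to 91.6 CPM) and ILC2 genes for 4 of 8, with 1 lower (91.3 to 152 CPM against 122 to 136 CPM). The ILC2 gene that fell was Rora, the most abundant of that list, at a mean of 62.8 CPM at 15 weeks and 90.7 CPM in saline. Mast cell and basophil markers rose for 2 of 6 (Cpa3 and Tpsb2) and fell for 1 (Kit). Their summed level (81.8 to 166 CPM against 171 to 239 CPM) was mostly Kit, at a mean of 115 CPM at 15 weeks and 206 CPM in saline, so it does not show the rises. Of 4 helper T cell lineage factors none rose and 3 fell, among them Tbx21 (-1.32 ± 0.30). Lung markers, which check the tissue, were abundant in every group, with 20115 to 41262 CPM at 15 weeks and 25477 to 35982 CPM in saline. No marker of these lists was at 0 in every library.

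Among the 5 genes whose log2 levels over the 43 libraries lay nearest to those of Foxp3, by the root mean square difference after centring, were Nfkbie (0.38), Sting1 (0.38), Cyth4 (0.39) and Aldh18a1 (0.39), out of 15597. Nfkbie had 34.2 CPM at 15 weeks, 29.2 CPM at 4 weeks and 12.4 CPM in saline. On the same measure Tnfrsf4 (0.47), Tnfrsf18 (0.47) and Icos (0.50) ranked 254, 336 and 685, Tigit and Il2ra 1614 and 2070, and Il10 and Ikzf2 6356 and 9902. The libraries share groups and depth, so this is a description of likeness.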

How the data were processed

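Strand-specific mRNA libraries were made from lung total RNA, per the labels. The values are raw counts, 1 row per Entrez gene, as deposited by the authors, and the build is GRCm38 per the submitters' processing notes. Aligner, counting tool, annotation and strand setting: not given in the sources used here. Of the 8 members, 5 overlap another annotated gene, so reads of overlapping genes may be mixed. Of 24475 IDs, 24375 were matched to symbols, and the 100 others hold 2.62% of counts. The members and the 13 gene lists were chosen with earlier results of these data known. The text names the 8 members, Cd3e, Cd4, Cd8a, Ctla4, Il2, Tnfsf4, Tnfsf18, Icosl and Tgfb1, up to 3 called genes with the smallest p per list and comparison, and the 5 genes nearest to Foxp3, except items that are not reported here. Gpr83, Ccr8, Nrp1, Nt5e, Stat5b, Il2rb, Cd96, Rora and, against isotype, Il13 were named after their values were seen.

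Counts were scaled by TMM and filtered with filterByExpr, leaving 15598 genes. A single edgeR 4.0.16 quasi-likelihood fit (R 4.3.3, limma 3.58.1) held all 43 libraries, with terms for group and number range, 7 contrasts and Benjamini-Hochberg adjustment over all genes at 0.05. CPM per kb used GENCODE M21 exon lengths. Foxp3 per Cd3 is log2 of the counts with 0.5 added to each, tested by exact two-sided permutation of libraries, adjusted over 5 comparisons. Distances to Foxp3 used log2(CPM + 0.5). The CPM worth of 3 counts covers counting error only. Python 3.11.15, NumPy 2.4.6, SciPy 1.17.1 and matplotlib 3.10.9 were used, and the fit was tested on simulated data. Alternatives were other size factors, no filter, DESeq2 1.42.0, no number range term, each range alone, only the 2 groups compared, leaving out libraries, other denominators and a pseudocount of 1.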

Additional observations from a re-analysis of the deposited data

Results flagged for a closer look

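Il10 in saline replicate 5 was at 0.673 CPM, and the next highest of the 7 saline libraries was at 0.267 CPM, a gap of 0.604 of the group's range. It was picked out because it lies far from the other libraries of its group. It rests on 8 counts. With 32 groups of values tested in this way, chance picks out about 5% of them.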

How the results depend on the processing

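No paired analysis was possible because the labels give no replicate numbers shared between groups. Of the counts of members called, 48 of 64 values under the alternatives stayed within 1.5 times of the reported count. For 15 against 4 weeks, 0 members were called in number range 2 alone, with only the 2 groups compared or without the libraries that stand apart, and 2 with DESeq2. For anti-IL-33 against isotype it was 2 with DESeq2, without the number range term, with only the 2 groups or without the libraries that stand apart, and 0 in range 2 alone. Leaving out each isotype library gave 0 to 1 members, 0 without isotype replicate 2. For anti-IL-33 against no antibody it was 1 with no filter, in range 1 alone, with only the 2 groups or without the libraries that stand apart, and 0 in range 2 alone. For anti-IL-33 against saline it was 3 in range 1 alone, which has 2 saline libraries.

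Foxp3 per Cd3 at 4 weeks against saline passed with Cd3e as denominator (0.69) and without the libraries that stand apart (0.72). At 15 weeks against saline the adjusted p was over the threshold in range 1 (2.05) and range 2 (1.31) alone, where the unadjusted exact permutation p was the smallest that 21 arrangements allow (0.0476), so these values say nothing about stability. The ratio also missed at 15 against 4 weeks in range 2 (0.61), and for anti-IL-33 against saline with Cd4 as denominator (0.20) and in range 1 (1.15), there at the smallest exact permutation p that 45 arrangements allow (0.0222). The other 27 values of the ratio kept their direction and side.

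Of the values of single genes, 455 kept direction and side, 18 called changes lost their call, 6 gained one, and 26 changed sign, none of which belonged to a called change. Of the lost calls, Ikzf2 for anti-IL-33 against no antibody made up 5, Il10 against saline 5, all in a single number range, Icos at 15 against 4 weeks 3 and Il2ra for anti-IL-33 3, with 1 each for Tnfrsf18 and Tnfrsf4 in range 1. For anti-IL-33 against isotype the changes of sign were Foxp3 in range 1 (0.10) and leaving out isotype libraries in turn (-0.33 to 0.11), Il10 in range 2 (-0.16) and leaving each out (-0.081 to 0.47), Tnfrsf18 (0.014) and Icos (-0.019) in range 2, and Tnfrsf4 in range 2 (-0.20), with no filter (-0.0064), with only the 2 groups (-0.015), without the libraries that stand apart (-0.0091), and leaving each out (-0.10 to 0.090). For isotype against no antibody they were, in range 2, Foxp3 (0.64), Il2ra (-0.31) and Il10 (0.084), Il2ra leaving out isotype libraries in turn (-0.067 to 0.50), and Tnfrsf18 without the libraries that stand apart (0.060) and leaving each out (-0.21 to 0.048). For 15 against 4 weeks they were Ikzf2 in range 2 (0.21) and without the libraries that stand apart (0.093), Il2ra in range 1 (-0.013), and Il10 in range 1 (0.11) and without the libraries that stand apart (0.18). The others were Ikzf2 at 4 weeks against saline in range 1 (0.092) and Icos for anti-IL-33 against no antibody in range 1 (0.054). The cause of these changes was not tested. Il10 at 14 to 94 counts per group without antibody limits what its values can show.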
